A study of Mus musculus with 16 samples.

Results

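The Kruppel-like factors were followed through blood neutrophils of control and LTβR-deficient mice that carried the labels unstimulated or stimulated. The 7 genes Klf2, Klf3, Klf4, Klf6, Klf7, Klf10 and Klf13 were chosen by symbol from the 23337 rows of the count table, where 17 rows are KLF genes. All 7 were present and all 7 were tested after the filter on low counts. The neutrophils came from the blood of 8 week old C57/Bl6 mice by negative selection with magnetic beads. LTβRΔN mice carry Ltbrfl/fl and Mrp8-Cre, and control mice are Cre- littermates that carry the same floxed Ltbr allele, which all groups therefore share. Mrp8-Cre is driven by the promoter of a calprotectin subunit gene that is used in the granulocyte lineage. Among the 16 libraries, control neutrophils gave 3 that are labelled unstimulated and 4 that are labelled stimulated, and LTβRΔN neutrophils gave 4 and 5. The protocol in the labels describes 2 h in culture with 3 cytokines, GM-CSF and TNF (each 100 ng/ml) and IL-6 (50 ng/ml), to which the LTβR ligand LIGHT (500 ng/ml) was added or not, whereas the series' design text takes the cytokines themselves as what was present or absent. The labels do not say for a single library which of these it received, so the groups are called by their labels. Nothing states whether libraries of a group came from different animals, so p-values measure the spread between these libraries, which may be technical.

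KLF proteins are transcription factors whose zinc fingers at the carboxyl end bind GC-rich and CACCC elements in promoters. The rest of the protein sets the partners: Klf3 is known to recruit the corepressor CtBP, Klf10 and Klf13 recruit Sin3A, and Klf2, Klf4, Klf6 and Klf7 carry activating regions. In leukocytes Klf2 is known for holding T cells and monocytes in a resting state and for restraining NF-κB, while Klf4 takes part in monocyte differentiation. Klf6 is known as an early injury and inflammation factor that acts with NF-κB, and Klf10 as a gene induced by TGF-β.

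The sequences before the transcription starts of the 3 members whose counts passed a test below are shown, since the sequence before the start is where a factor that sets their transcript level can bind, and KLF proteins themselves bind the CACCC box. They are RefSeq promoter sequences on GRCm38.p6, cut where the first annotated exon starts, all on the plus strand. Capitals mark the CACCC box (read as GGGTG on the other strand), the MEF2 motif and the CCAAT box (ATTGG on the other strand), each searched on both strands.
Klf2, chr8:72318812-72319032: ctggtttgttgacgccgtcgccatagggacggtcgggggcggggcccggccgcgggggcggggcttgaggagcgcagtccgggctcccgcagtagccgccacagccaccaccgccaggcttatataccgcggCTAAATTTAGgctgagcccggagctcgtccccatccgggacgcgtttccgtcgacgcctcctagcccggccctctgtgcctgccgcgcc
Klf3, chr5:64803271-64803387: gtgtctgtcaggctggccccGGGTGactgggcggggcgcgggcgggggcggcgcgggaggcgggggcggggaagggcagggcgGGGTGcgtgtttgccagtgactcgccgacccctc
Klf6, chr13:5861239-5861481: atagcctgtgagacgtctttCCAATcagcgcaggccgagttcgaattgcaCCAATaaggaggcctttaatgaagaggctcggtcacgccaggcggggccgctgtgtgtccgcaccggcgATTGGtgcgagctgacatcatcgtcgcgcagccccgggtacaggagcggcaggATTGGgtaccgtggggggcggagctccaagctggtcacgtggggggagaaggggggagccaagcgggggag
The Klf2 stretch of 221 bases held 1 MEF2 motif, the Klf3 stretch of 117 bases held 2 CACCC boxes and 5 GC boxes (GGGCGG, of which 1 overlapped a CACCC box), and the Klf6 stretch of 243 bases held 4 CCAAT boxes. Promoter windows of 300 bases, from 250 before to 50 after the start, were found for 6 of the 7 members, Klf10 having none. The MEF2 motif was found in the Klf2 window and in 3.19% of all 32851 windows, the CCAAT box in the windows of Klf6 and Klf13 and in 37.4% of all, and the CACCC box in those of Klf2, Klf3, Klf7 and Klf13 and in 57.5% of all. A GC box stood in the windows of all 6 members and in 35.7% of all windows. No member window held the letters of a STAT motif (TTCNNNGAA), an AP-1 motif (TGANTCA), a CRE (TGACGTCA), a TATA box (TATAAA) or the NF-κB motif, which were in 8.3%, 7.81%, 1.79%, 13.6% and 8.46% of all windows. These are matches of letters in 1 window per gene. The CCAAT box was added to the search after the data had been seen.

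Totals ranged from 1094335 to 11932653 counts per library, and 3 libraries, 68, 75 and 77, all of them LTβRΔN, held fewer than 2000000. Ltbr lay between 84.6 and 154 CPM (counts per 1000000 counts, TMM-scaled) in control libraries and between 0.704 and 18.1 CPM in LTβRΔN libraries. Cish, Socs3, Nfkbia and Tnfaip3, genes that GM-CSF, IL-6 and TNF are known to induce, rose under the stimulated label in both genotypes, by 4.03 to 8.60 on the log2 scale in control and by 3.59 to 8.05 in LTβRΔN neutrophils. The neutrophil markers summed to between 45898 and 76385 CPM. Of 7 B cell markers 5 were at 0 in every library and the sum did not pass 4.16 CPM, and of 9 T and NK cell markers 3 were at 0 and the sum did not pass 16.4 CPM. Library 82, a stimulated control library, stood apart with 214 CPM of platelet markers and 810.5 CPM of immature neutrophil markers, against 6.23 to 57.9 CPM and 42.4 to 340.2 CPM in the other libraries. The library index S520 was carried by all unstimulated LTβRΔN libraries and by control libraries 71 and 72, and S521 by the other 10 libraries, so index and treatment label cannot be told apart in LTβRΔN neutrophils.

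**Figure D1:**
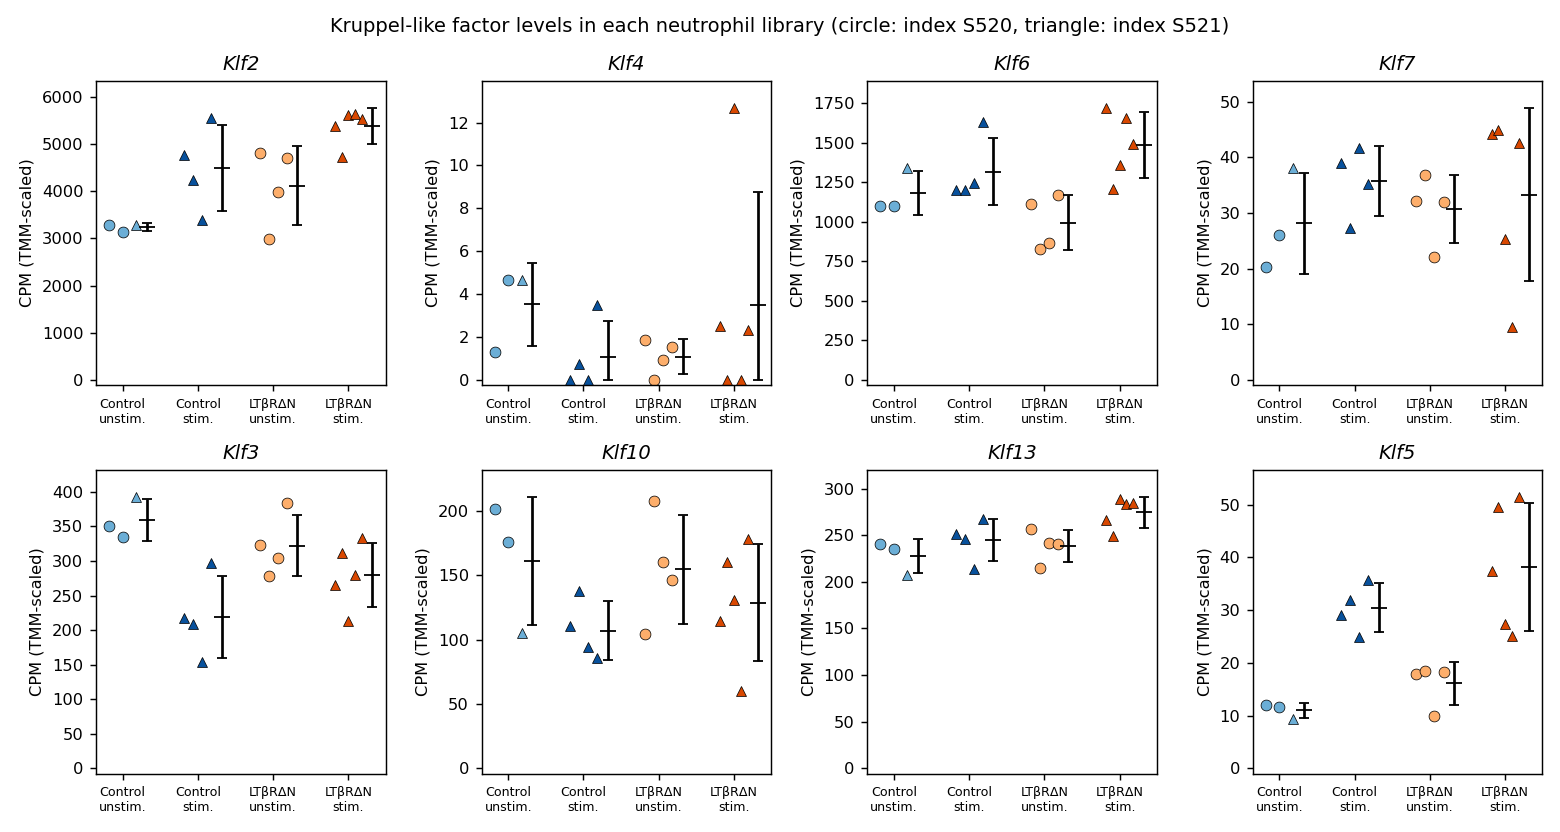
Levels of the 7 Kruppel-like factors and of Klf5 in CPM (TMM-scaled, linear axes) in each of the 16 libraries, with the mean and SD of each group beside its points and lower bars ended at 0. Circles are libraries with index S520 and triangles those with index S521. Klf2 and Klf5 sit higher and Klf3 lower in stimulated than in unstimulated control libraries, while Klf4 stays under 13 CPM everywhere.

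Klf2 was by far the most abundant family member. Compared per kilobase of merged exon, the mean level over the 16 libraries was 2406 CPM per kb for Klf2, 288 for Klf6, 33.1 for Klf13, 32.5 for Klf10, 25.8 for Klf3, 3.98 for Klf7 and 0.749 for Klf4. Klf2 was above Klf6 in 16 of 16 libraries (ratio of means 8.35) and Klf6 above Klf13 in 16 of 16 (8.71), with no overlap of their ranges. Klf13 and Klf10 did not differ beyond their spread, Klf13 being the higher in 8 of 16 libraries, and Klf10 was above Klf3 in 12 of 16 with overlapping ranges. Klf3 was above Klf7 in 16 of 16 libraries and Klf7 above Klf4 in 15 of 16, in the second case with overlapping ranges. Klf2 made up between 81.1% and 87.9% (median 86.2%) of the summed level per kilobase of all KLF genes, and Klf6 between 8.01% and 14.0%. By mean CPM Klf2 ranked 24 and Klf6 120 among the 9213 tested genes, Klf3 546, Klf13 627, Klf10 1078, Klf7 3185 and Klf4 7726.

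**Figure D2:**
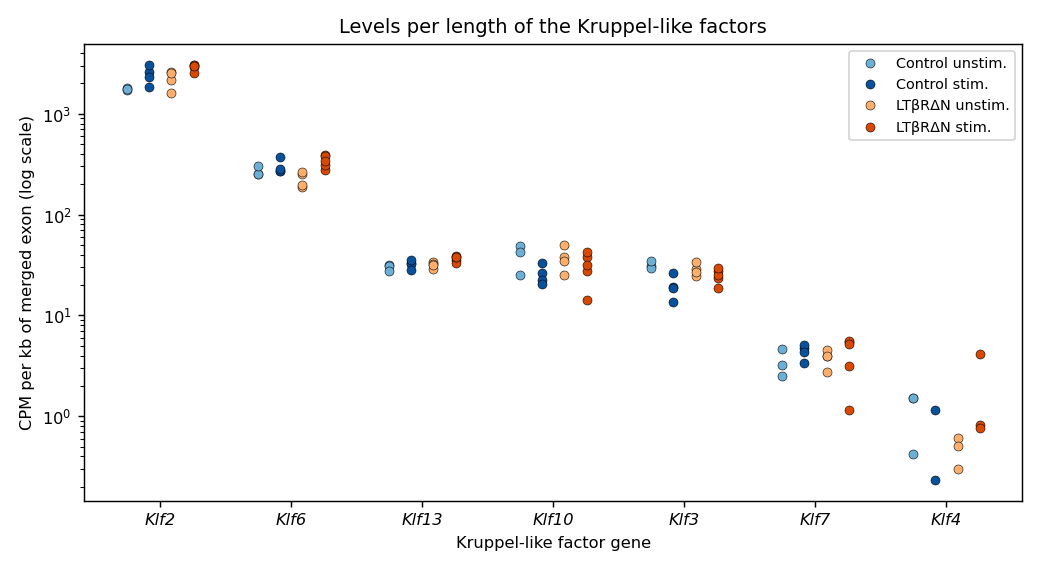
Level per kilobase of merged exon (CPM per kb, log axis) of each Kruppel-like factor in the 16 libraries, coloured by group, with libraries at 0 counts of Klf4 not drawn. Klf2 lies at 1617 CPM per kb or above and Klf6 between 189 and 392 CPM per kb in every library, and Klf13, Klf10 and Klf3 overlap below them.

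The members also differed in how far replicate libraries spread. Within groups the coefficient of variation was 7.69% for Klf13, 14.9% for both Klf2 and Klf6, 17.7% for Klf3, 29.3% for Klf10, 31.5% for Klf7 and 119% for Klf4. Behind these values stood 416252 counts of Klf2 over the 16 libraries, 121233 of Klf6, 29805 of Klf3, 23965 of Klf13, 13624 of Klf10, 3205 of Klf7 and 184 of Klf4. Klf4 had at most 41 counts in a library and is not resolved at this depth.

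Over both genotypes, 3 of the 7 members passed the test for the treatment label, Klf2 and Klf6 being higher and Klf3 lower in stimulated neutrophils, beside 6.73% of all tested genes, 4.82% higher and 1.91% lower. Each comparison was made in 1 edgeR quasi-likelihood fit over all 16 libraries, with p-values adjusted by Benjamini-Hochberg over 9213 genes. Changes below are log2 fold changes. The median change of the 7 members was 0.15 and that of all tested genes -0.038, with 4 of 7 members above 0. The library index touches these calls: with it in the model, where its term rests on control library 73 against 71 and 72, 0 of the 7 members and 147 genes passed. The averaged change was then 0.41 for Klf2 and -0.62 for Klf3, near or beyond the values without index (0.43 and -0.46), and 0.13 for Klf6 against 0.37. Libraries 68, 75 and 77 touch them too, and without these small libraries 1 member passed, Klf2 (0.35), while the changes of Klf3 and Klf6 were -0.42 and 0.31.

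Klf2, the quiescence factor of the resting lymphocyte and monocyte, lies on chromosome 8 of GRCm38 at 72319033-72321656 (ENSMUSG00000055148, plus strand). In unstimulated control neutrophils its level was 3295, 3147 and 3281 CPM in libraries 71, 72 and 73. In stimulated control neutrophils it was 4769, 4241, 3403 and 5565 CPM in libraries 80 to 83. Every stimulated control library was above every unstimulated one, though library 82 was close to them. LTβRΔN libraries 67 to 70 held 4808, 2987, 3978 and 4708 CPM without stimulation, and libraries 75 to 79 held 5394, 4724, 5614, 5655 and 5546 CPM with it. Here the groups overlapped, since the lowest stimulated library was below the highest unstimulated one. The spread between unstimulated libraries was much wider in LTβRΔN (SD 841, n = 4) than in control neutrophils (SD 81.8, n = 3).

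The change of Klf2 was 0.47 ± 0.15 (SE) in control (edgeR adjusted p = 0.115) and 0.39 ± 0.13 in LTβRΔN neutrophils (edgeR adjusted p = 0.143), and neither passed alone. Averaged over the genotypes it was 0.43 ± 0.10, 1.35-fold (95% interval 0.22 to 0.64 on the log2 scale), and passed (edgeR adjusted p = 0.00807). An exact two-sided permutation test of the averaged difference within genotypes gave p = 0.00249, where the smallest p it allows is 0.000227. The averaged call held whichever of the 16 libraries was left out. With library totals as the only scaling the averaged change was 0.22 and did not pass (edgeR adjusted p = 0.134). In control neutrophils without library 82, the library rich in platelet and immature neutrophil transcripts, it was 0.58 and passed (edgeR adjusted p = 0.0241). With the number in the column names as a block, Klf2 passed in control (0.58, edgeR adjusted p = 0.00235) and in LTβRΔN neutrophils (0.40, edgeR adjusted p = 0.0154). What that number marks is not stated, but each shared number joins an unstimulated and a stimulated library of the same genotype.

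Klf3, the CtBP-binding repressor of the family, moved the other way. The gene lies on chromosome 5 at 64803388-64832901 (ENSMUSG00000029178, plus strand), and 404 bases of its exons lie opposite the transcript Gm20033, which is not in the table. Its level was 351, 335 and 393 CPM in unstimulated and 217, 209, 154 and 297 CPM in stimulated control neutrophils. All stimulated control libraries were below all unstimulated ones. In LTβRΔN neutrophils it was 322, 278, 305 and 383 CPM without and 265, 311, 213, 280.0 and 333 CPM with stimulation, and these groups overlapped.

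Klf3 fell by 0.71 on the log2 scale in control neutrophils (SE 0.18, 0.610-fold, edgeR adjusted p = 0.0229, exact two-sided permutation p = 0.0571 with a smallest possible p of 0.0286), the 1 member of 7 that passed there, where 3.48% of all tested genes passed and 0.662% were lower. In LTβRΔN neutrophils its change was -0.20 ± 0.16 (edgeR adjusted p = 0.719). Averaged over the genotypes it fell by 0.46 (SE 0.12, edgeR adjusted p = 0.0200, exact two-sided permutation p = 0.0118 within genotypes). The control result is narrow: the change stayed between -0.89 and -0.57 whichever of the 7 control libraries was left out, but the call was lost without 71, 72, 73, 80, 81 or 82. Without library 82 the change was -0.57 (edgeR adjusted p = 0.0853). Within the 5 control libraries of index S521 it was -0.85 (edgeR adjusted p = 0.267), with 1 unstimulated library. The averaged call was lost without library 70 or 73. Klf2 and Klf3 were the 2 members of 7 whose control groups did not overlap, 1 higher and 1 lower, beside 12.7% of all tested genes (6.58% higher and 6.09% lower).

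Klf6, the inflammation-linked member, lies on chromosome 13 at 5861482-5870394 (ENSMUSG00000000078, plus strand). Its level was 1101, 1103 and 1342 CPM in unstimulated and 1199, 1198, 1243 and 1631 CPM in stimulated control neutrophils. The control groups overlapped, since unstimulated library 73 was above 3 of the 4 stimulated libraries. In LTβRΔN neutrophils it was 1114, 829, 866 and 1170.3 CPM without and 1719.8, 1211, 1362, 1655 and 1494 CPM with stimulation. There every stimulated library was above every unstimulated one.

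The change of Klf6 was 0.58 ± 0.13 in LTβRΔN neutrophils (1.49-fold, edgeR adjusted p = 0.0111, exact two-sided permutation p = 0.0159), the 1 member of 7 that passed, beside 3.73% of all tested genes and 2.98% higher. It was also the 1 member whose groups did not overlap there, beside 7.27% of all tested genes and 4.61% higher. In control neutrophils the change was 0.16 ± 0.15 (edgeR adjusted p = 0.858) with a 95% interval from -0.16 to 0.47, and -0.090 with library totals as the scaling. Averaged over the genotypes it was 0.37 ± 0.10 (edgeR adjusted p = 0.0272, exact two-sided permutation p = 0.00680 within genotypes). The LTβRΔN call was lost without library 68 (0.50, edgeR adjusted p = 0.0555) or 69 (0.52, edgeR adjusted p = 0.0690), and with library totals as the only scaling (0.40, edgeR adjusted p = 0.0638). With index in the model the LTβRΔN change was 0.29 (edgeR adjusted p = 0.9999). The averaged Klf6 call was lost when library 68, 69, 71, 72, 75, 78 or 83 was left out, and with library totals (0.16, edgeR adjusted p = 0.310) or upper-quartile scaling (0.33, edgeR adjusted p = 0.0545).

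**Figure D3:**
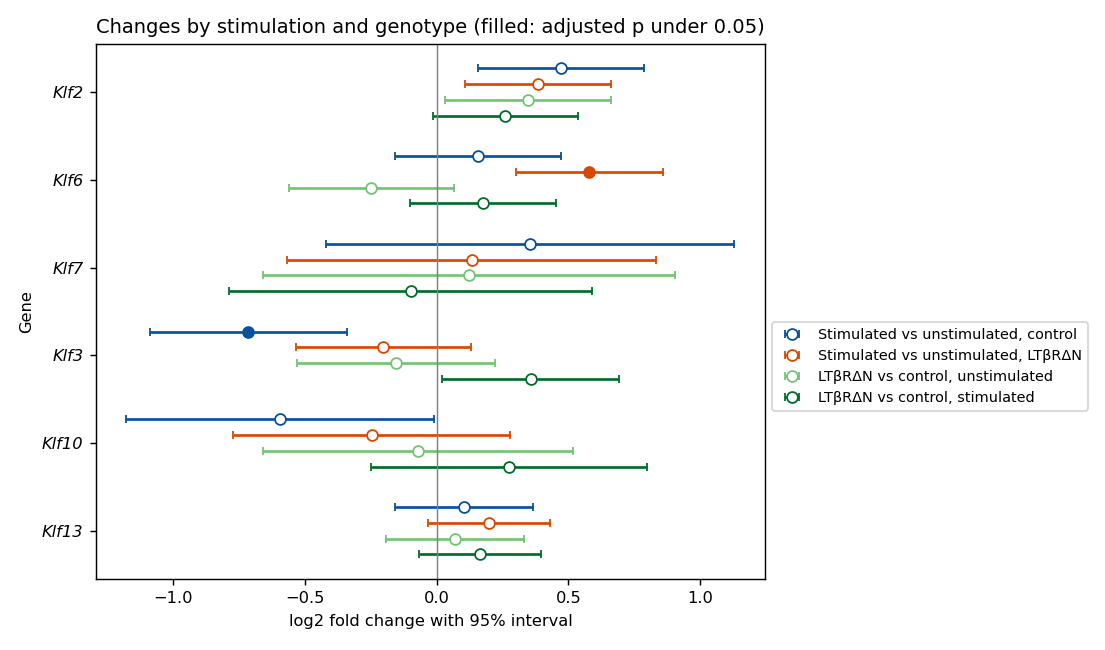
Log2 fold changes with 95% intervals of 6 Kruppel-like factors in the 4 comparisons, with filled points for an adjusted p under 0.05. Klf3 in control (-0.71) and Klf6 in LTβRΔN neutrophils (0.58) are the filled points, and Klf4, whose intervals span several log2 units, is left out.

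The 4 other members passed in none of the treatment comparisons, but with library totals as the only scaling Klf10 passed averaged over the genotypes (-0.64, edgeR adjusted p = 0.0347). Klf10, the TGF-β-induced repressor (chromosome 15 at 38291463-38300706, minus strand), had 202, 176 and 105 CPM in unstimulated and 111, 138, 94.0 and 85.8 CPM in stimulated control libraries. Its control change was -0.59 ± 0.28 (edgeR adjusted p = 0.421), and library 73 of index S521 sat among the stimulated libraries of the same index. Within index S521, where 73 is the 1 unstimulated library, the change of Klf10 was 0.017. In LTβRΔN neutrophils Klf10 spread from 105 to 208 CPM without and from 60.1 to 178 CPM with stimulation, a change of -0.25 ± 0.25.

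Klf13, known in T cells as an activator of the chemokine gene Ccl5, was the steadiest member (chromosome 7 at 63886351-63938915, minus strand). Its level was 241, 235 and 207 CPM in unstimulated and 251, 246, 214 and 268 CPM in stimulated control neutrophils. In LTβRΔN neutrophils it was 257, 215, 241 and 241 CPM without and 266, 249, 289, 284 and 284 CPM with stimulation, where only stimulated library 76 was below an unstimulated one, 67. The change was 0.10 ± 0.13 in control and 0.20 ± 0.11 in LTβRΔN neutrophils (edgeR adjusted p = 0.908 and 0.508). Averaged it was 0.15 with a 95% interval from -0.023 to 0.33, while the exact two-sided permutation test within genotypes gave p = 0.0202 without adjustment. Its direction rests on the scaling, as library totals alone gave an averaged change of -0.063.

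Klf7, a widely expressed member studied mainly in neurons (chromosome 1 at 64029447-64122282, minus strand), was low, between 9.42 and 44.9 CPM. Its exons share 3196 bases with the opposite-strand transcript Gm26649 and 4 with Gm13748, neither of them in the table, and whether strand was used in counting is not given in the sources used here. Its changes were 0.35 ± 0.37 in control and 0.13 ± 0.34 in LTβRΔN neutrophils. Klf4, on chromosome 4 at 55527143-55532466 on the minus strand, had 1.29, 4.64 and 4.63 CPM in unstimulated and 0, 0.711, 0 and 3.49 CPM in stimulated control libraries. In LTβRΔN libraries it had 1.85, 0, 0.905 and 1.53 CPM without and 2.49, 0, 12.7, 0 and 2.32 CPM with stimulation. A count of 0 allows up to 0.297 to 2.40 CPM in the libraries at 0, from 3 counts and counting error only. No difference in Klf4 was detectable at this depth, and its 95% intervals ran from -5.08 to 1.65 in control and from -1.63 to 4.68 in LTβRΔN neutrophils.

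Genotype differences of the members did not pass under either label. In unstimulated neutrophils 0 of the 7 members passed, beside 0.0217% of all tested genes, and 1 of 7 had an unadjusted edgeR p under 0.05, beside 2.80% of all. The groups overlapped for all 7 members, while 5.71% of all genes had groups that did not. The member with the low unadjusted p was Klf2, which had 3241 ± 81.8 CPM (SD, n = 3) in control and 4120.3 ± 841 CPM (SD, n = 4) in LTβRΔN libraries, a difference of 0.35 ± 0.15 (unadjusted edgeR p = 0.0323, adjusted p = 1, exact two-sided permutation p = 0.200). LTβRΔN library 68 was the lowest of all 7 and the other 3 LTβRΔN libraries were above all control libraries. In stimulated neutrophils 0 of 7 members passed, beside 0.0217% of all genes, and 1 of 7 had an unadjusted edgeR p under 0.05, beside 6.41%. The groups overlapped for all 7 here too, and did not for 1.31% of all genes. The member with the low unadjusted p was Klf3, with 219 ± 59.1 CPM (SD, n = 4) in control and 280.2 ± 46.2 CPM (SD, n = 5) in LTβRΔN libraries, a difference of 0.36 ± 0.16 (adjusted p = 0.743, exact two-sided permutation p = 0.119). DESeq2 and limma-voom also called 0 members in both.

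The change with stimulation was not shown to differ between the genotypes for any member. The interaction, LTβRΔN change minus control change, was 0.51 for Klf3 with a 95% interval from 0.0090 to 1.01, and 0.42 for Klf6 with an interval from 0.0038 to 0.84, and edgeR gave an adjusted p = 0.9999 for both. It was -0.086 for Klf2, with an interval from -0.50 to 0.33. With edgeR 0 of the 7 members and 0 of 9213 genes passed, and 2 members and 342 genes (3.71%) had an unadjusted p under 0.05. DESeq2 and limma-voom called 0 genes for it as well.

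Ratios of counts between members within a library do not depend on how libraries are scaled, and were computed after the data had been seen, so they are given with no test. The number of Klf2 counts per Klf3 count was 9.40, 9.40 and 8.36 in unstimulated control libraries and 22.0, 20.3, 22.2 and 18.7 in stimulated ones. In LTβRΔN libraries it was 14.9, 10.7, 13.1 and 12.3 without and 20.4, 15.2, 26.4, 20.2 and 16.7 with stimulation. In both genotypes every stimulated library was above every unstimulated one. In control neutrophils this had to follow, since Klf2 was higher and Klf3 lower there without overlap. The ratio therefore adds nothing there beyond the levels of the genes themselves. Klf6 per Klf3 lay between 3.14 and 3.42 in unstimulated and between 5.49 and 8.10 in stimulated control libraries. In LTβRΔN libraries it lay between 2.84 and 3.46 and between 3.89 and 6.50, again without overlap. Averaged over the genotypes, Klf2 and Klf6 had passed as higher and Klf3 as lower in these same libraries. The choice of these pairs therefore favoured a separation in both genotypes, and the share of all gene pairs that separate was not computed. Control library 73, which shares index S521 with the stimulated libraries, had 8.36 Klf2 and 3.42 Klf6 counts per Klf3 count, close to the unstimulated libraries of index S520 and below all stimulated ones. The part of index in these ratios was not tested. Klf2 per Klf6 count was 2.44 to 2.99 in unstimulated control and 3.60 to 4.59 in unstimulated LTβRΔN libraries, while the stimulated groups overlapped (2.74 to 3.98 and 3.14 to 4.12). Pairs without Klf3 separated the treatment labels less. Klf6 per Klf10 overlapped in both genotypes, with 5.46 to 12.7 in unstimulated and 8.70 to 19.0 in stimulated control libraries. Klf2 per Klf13 overlapped in LTβRΔN libraries (13.9 to 19.6 without and 19.0 to 20.2 with stimulation) but not in control libraries.

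**Figure D4:**
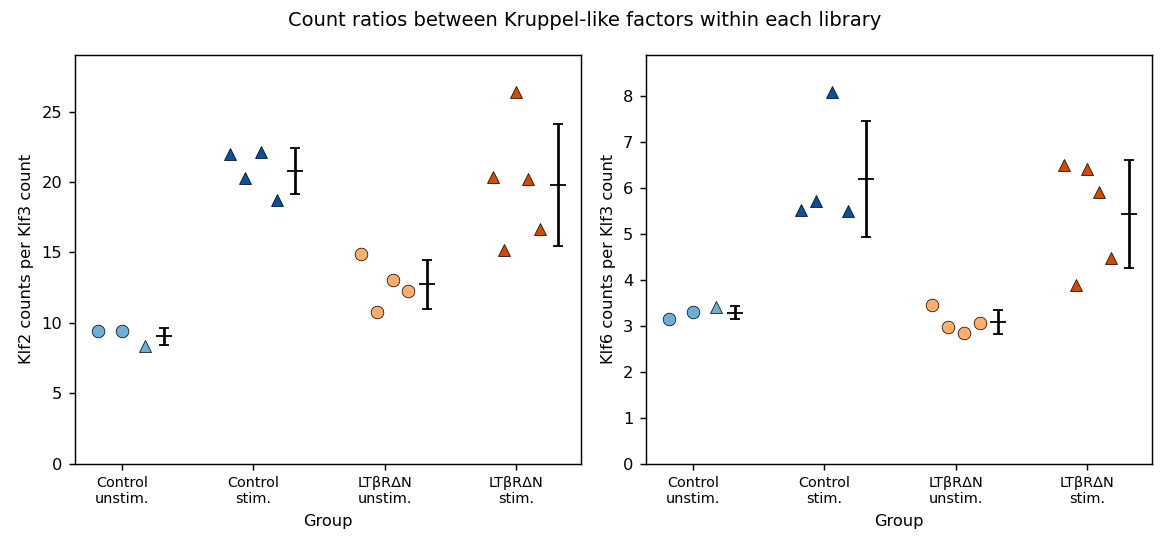
Counts of Klf2 (left) and Klf6 (right) per count of Klf3 in each library, with the mean and SD of each group, circles for index S520 and triangles for index S521. The control group means rise from 9.05 to 20.8 for Klf2 per Klf3 and from 3.28 to 6.21 for Klf6 per Klf3, and stimulated and unstimulated libraries do not overlap in either genotype. For Klf2 per Klf3 in control neutrophils this follows from the levels of the genes themselves. The other separations were favoured by pairing members that had passed in opposite directions in these libraries.

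Among the members Klf2 and Klf13 varied most alike over the 16 libraries, with Pearson's r = 0.895 of log2 CPM, and r was 0.816 for deviations from the group means. Klf13 was the gene most like Klf2 among all tested genes, and Klf2 the gene most like Klf13. The next most like Klf2 was Kctd12 (r = 0.885). Klf2 and Klf6 had r = 0.684, and Klf6 and Klf10 varied in opposite directions (r = -0.64). The genes most like Klf6 were Tnrc6b (r = 0.921) and the nuclear RNA Malat1 (r = 0.876), those most like Klf3 were Nsun2 (0.876) and Atf7ip (0.843), and those most like Klf10 were Tomm40 (0.849) and Fam108a (0.820). Klf4 was most like Rd3 (0.872), at 2.30 CPM, and Pdzd11 (0.820), Klf7 most like Usp8 (0.855) and Zfp617 (0.851), and the second gene for Klf13 was Gramd1b (0.822). These values describe 16 libraries that share library preparation, scaling and depth differences, and they carry no p.

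**Figure D5:**
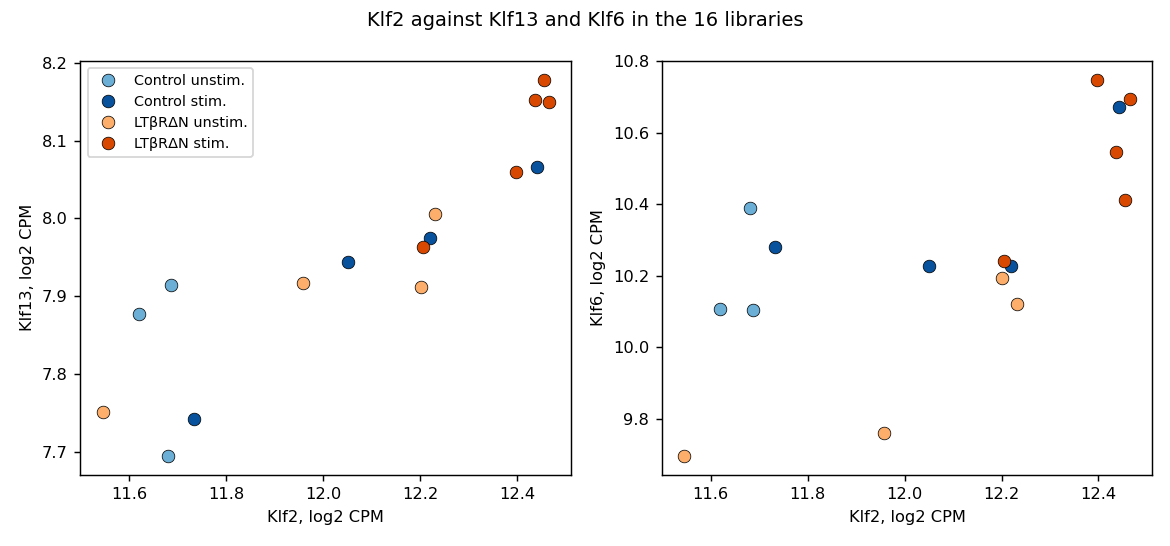
Level of Klf2 against Klf13 (left) and Klf6 (right) in log2 CPM, 1 point for each of the 16 libraries, coloured by group. Klf2 and Klf13 lie along 1 line over all groups (r = 0.895), and Klf2 and Klf6 scatter more widely (r = 0.684).

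The other KLF genes were low or not found. Klf1, Klf8, Klf12, Klf14, Klf15 and Klf17 had 0 counts in all 16 libraries, which allows up to 0.228 CPM in the deepest library (3 counts). Klf5, an activating relative known from epithelial cells, rose from 11.0 ± 1.39 CPM (SD, n = 3) to 30.5 ± 4.62 CPM (SD, n = 4) in control neutrophils, a change of 1.46 (SE 0.33, edgeR adjusted p = 0.00888). In LTβRΔN neutrophils it rose from 16.1 ± 4.12 CPM (SD, n = 4) to 38.2 ± 12.2 CPM (SD, n = 5), a change of 1.26 (SE 0.30, edgeR adjusted p = 0.0115), and groups did not overlap in either genotype. Klf9, Klf11 and Klf16 and the related factors Sp1, Sp2, Sp3 and Sp4 passed in no comparison. Of these Klf11 had 34.8 CPM in unstimulated and 20.6 CPM in stimulated control neutrophils (change -0.76 ± 0.39), and Sp3 had 80.6 and 58.9 CPM (change -0.45 ± 0.25). Sp5 to Sp9 were at 0.

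The genes around the KLF proteins mostly did not pass in edgeR, the tool used for the lists. Of 11 corepressors and acetylases that KLF proteins bind, 0 passed in control and 1 in LTβRΔN neutrophils, where the acetylase gene Crebbp rose from 18.6 ± 2.64 CPM (SD, n = 4) to 40.4 ± 7.46 CPM (SD, n = 5), a change of 1.14 (SE 0.26, edgeR adjusted p = 0.00914), beside 3.48% and 3.73% of all tested genes. Averaged over the genotypes 2 passed, beside 6.73% of all, Crebbp and the acetylase gene Kat2b (1.23, edgeR adjusted p = 0.0174). The list's median changes were 0.073 and 0.085. Of 10 genes of the MEK5-ERK5, MEF2 and FOXO inputs to Klf2 and Klf4, 0 passed in either genotype (unadjusted p under 0.05 for 1 and 2 of them, beside 1049 and 1199 of all 9213 genes, medians -0.31 and -0.099). Averaged, 1 of these passed, beside 6.73% of all tested genes and 4.82% higher, the MEK5 kinase gene Map3k2 (0.80, edgeR adjusted p = 0.0373). Of 8 ubiquitin ligases that act on KLF proteins, 0 passed as well, also averaged (unadjusted p under 0.05 for 2 and 1, medians -0.035 and 0.20).

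Of 21 genes known as KLF2 or KLF4 targets 16 were tested, and 6 were higher and 1 lower in control neutrophils and 7 higher and 0 lower in LTβRΔN neutrophils, with medians of 0.12 and 0.48, beside 2.82% higher and 0.662% lower of all genes in control and 2.98% and 0.749% in LTβRΔN neutrophils. The higher genes that passed in both were Cd14, Cdkn1a, F3, Tnf, Il1b and Tlr4, of which all but Cdkn1a, a cell cycle inhibitor, belong to inflammation or coagulation. Cd14, the LPS coreceptor, rose from 816 ± 148 CPM (SD, n = 3) to 6859 ± 1129.8 CPM (SD, n = 4) in control neutrophils. F3, the coagulation tissue factor, rose from 1.78 ± 1.59 CPM (SD, n = 3) to 130.4 ± 34.7 CPM (SD, n = 4). Thbd, the anticoagulant thrombomodulin and a gene that KLF2 activates in endothelium, fell by 1.82 on the log2 scale in control neutrophils (edgeR adjusted p = 0.00564) and had a change of -1.18 in LTβRΔN neutrophils (edgeR adjusted p = 0.0687). Hif1a passed in LTβRΔN neutrophils with a change of 0.50. S1pr1, a receptor gene by which KLF2 is known to set T cell traffic, passed in neither genotype and was at or under 9.01 CPM in every library. Cd14, F3, Tnf and Il1b are also known as NF-κB targets. This list, like the others, was chosen with earlier results of these data known. Whether Klf2 or Klf4 acts on these genes here was not tested.

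Of 14 genes known as targets of Klf6, Klf10 or Klf13, 11 were tested. In control neutrophils 2 were higher and 0 lower, Cdkn1a and the survival gene Mcl1, which rose from 2124 ± 907 CPM (SD, n = 3) to 5131 ± 429.8 CPM (SD, n = 4). In LTβRΔN neutrophils 1 was higher, Cdkn1a, and 1 lower, the stress factor gene Atf3, which fell by 0.71 (edgeR adjusted p = 0.0295). The medians were 0.44 and 0.35, and of all tested genes 3.48% and 3.73% passed. Averaged over the genotypes 3 were higher and 1 lower, beside 4.82% higher and 1.91% lower of all tested genes. The fourth gene was Tgfb1 (0.64, edgeR adjusted p = 0.0371).

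Markers of other cells were set beside the treatment comparisons. The 10 monocyte markers summed to between 442 and 677 CPM in unstimulated and between 627 and 912 CPM in stimulated libraries. Only 5 of the 10 had a mean over 1 CPM, and Ccr2, Cx3cr1 and Ms4a4c were at 0 in every stimulated library. Cd74 passed in both genotypes and H2-Aa in LTβRΔN neutrophils. Mean Ly6c2 without and with stimulation was 113 and 126 CPM in control and 117 and 126 CPM in LTβRΔN neutrophils. For Emr1 these means were 68.9 and 75.4 CPM in control and 70.0 and 69.0 CPM in LTβRΔN neutrophils. Of the 5 monocyte markers tested 4 were above 0 in each genotype, with medians of 0.17 and 0.11. The one below 0 in both, Csf1r, a defining monocyte receptor, had 346 ± 46.7 and 289 ± 53.6 CPM (SD, n = 3 and 4) in unstimulated and stimulated control neutrophils. Of 7 platelet markers 6 were tested, 0 passed, and all 6 were above 0 in control neutrophils with a median change of 2.66, in which library 82 is the highest. The 8 immature neutrophil markers, 3 of them at 0, gave 5 tested genes of which 0 passed, all 5 above 0 in control neutrophils with a median change of 1.45. Between the genotypes in stimulated neutrophils all 5 of these and all 6 platelet markers were lower in LTβRΔN, with medians of -1.61 and -3.19 and an unadjusted p under 0.05 for 3 of each, and 0 passed. Without library 82 the difference of Klf3 in that comparison was 0.22, against 0.36 with it. Of 9 neutrophil markers 0 passed in either genotype and 1 averaged, Fpr1 (0.39), beside 6.73% of all tested genes averaged. The part of these cells in the KLF values was not tested. In bulk samples, fewer cells of a type and less RNA of a gene per cell cannot be told apart.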

How the data were processed

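Counts per gene symbol in 16 bulk RNA-Seq libraries (single-end, HiSeq2500) were used. The authors deposited 1 table of raw counts, without normalization. The submitters' processing notes name mm10, Bowtie 1.0.0, TopHat 1.4.1 and HTSeq 0.7.1, and the gene annotation and the strand setting are not given in the sources used here. Libraries were grouped by the labels for genotype and treatment, and named by the number in the sample titles.

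The filter of edgeR (filterByExpr, at least 10 counts in enough libraries and 15 in total) kept 9213 of 23337 genes. TMM factors (0.916 to 1.14) and the quasi-likelihood test of edgeR 4.0.16 in R 4.3.3 were used in 1 fit with 1 coefficient per group, and adjusted p-values under 0.05 counted as passed. CPM use the TMM-scaled totals. Log2 CPM (prior count 2) also entered exact permutation tests, two-sided and not adjusted, for the 7 members in each of 4 comparisons between groups and averaged within genotypes. The smallest p was 0.0286 for 3 against 4 and 0.00794 for 4 against 5 libraries. Merged exon lengths and places come from GENCODE M21 on GRCm38, and promoters from RefSeq. Low depth limits single values: 1 count was worth up to 0.800 CPM, and floors of 3 counts cover counting error only. In simulated counts for stimulation in control neutrophils over 9213 genes, 0% of 200 altered genes were recovered at 1.5-fold, 21.5% at 2-fold and 52% at 4-fold, with 1, 3 and 5 false calls. Pairs of libraries of a group differed by more than sampling noise (chi-square per degree of freedom 7.12 to 50.4 over 25 pairs).

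The members, gene lists and tests were chosen with earlier results of these data known. All members are named. Other genes are named where they are on a list and passed in a comparison other than the averaged one (at most 6 per list), are relatives with at least 1 CPM, are among the 2 genes most correlated with a member, are markers beside a result, or are the checks of genotype and treatment. Thbd, Hif1a, S1pr1, Kat2b, Map3k2, Tgfb1 and Fpr1 were named after their values were seen. The markers Ly6g, Trbc2, Ighm and Hbb-bt were not matched in the table. Alternatives were other scalings and filters, index, the number in the column names as a block, DESeq2 1.42.0, limma-voom (limma 3.58.1), other thresholds, and leaving out libraries.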

Additional observations from a re-analysis of the deposited data

Results flagged for a closer look

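Of 21 groups of levels examined (7 members in the groups of at least 4 libraries), 3 held a library far from the others by Dixon's ratio, where 1.05 are expected, since chance flags about 5% of groups. Klf2 in stimulated LTβRΔN neutrophils was low in library 76, at 4724 CPM against 5394 CPM in the nearest library. Klf4 in the same group was high in library 77, at 12.7 CPM against 2.49 CPM, in a library of under 2000000 counts. Klf6 in stimulated control neutrophils was high in library 83, at 1631 CPM against 1243 CPM, and without that library its change in control neutrophils was 0.039.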

How the results depend on the processing

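Of 930 changes of members recomputed under the alternatives, 861 kept their direction and side of the threshold, 31 no longer passed, 6 passed only then and 32 turned direction. Causes were not tested. Most of the 930 had not passed at first, and only changes that had passed could be among the 31. With each library left out in turn, Klf3 passed in 1 of 7 fits in control and Klf6 in 7 of 9 in LTβRΔN neutrophils. Averaged, Klf2 passed in 16, Klf3 in 14 and Klf6 in 9 of 16 fits. In control neutrophils 1 of 7 members and 321 genes passed, against 0 members with index as a covariate (157 genes), within index S521 (153 genes) and in a fit of the compared groups only, where Klf3 was -0.84, -0.85 and -0.71, 2 members with the block and with DESeq2, and 3 members and 1049 genes at an unadjusted p under 0.05. In LTβRΔN neutrophils 1 member and 344 genes passed, against 0 members with library totals, index (79 genes) and without the small libraries, 2 members with the block and with limma-voom, and 2 members and 1199 genes unadjusted. Averaged, 3 members and 620 genes passed, against 1230 genes with library totals, 0 members and 147 genes with index, 1 member without the small libraries and 1547 genes unadjusted. The 2 genotype genes in unstimulated neutrophils became 4 without the count filter or with DESeq2, 1 with 10 counts in every library, 5 with limma-voom and 258 unadjusted (1 member), and the 2 in stimulated neutrophils became 1, 14 with DESeq2 and 591 unadjusted (1 member). The interaction gave 1 gene with index, and 342 genes and 2 members unadjusted.

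Library totals moved the median change of all genes by -0.25 in control, -0.18 in LTβRΔN and -0.21 averaged, and the split of higher and lower genes from 260 and 61 to 201 and 272, from 275 and 69 to 216 and 293, and from 444 and 176 to 335 and 895. With these totals Klf6 (-0.090) and Klf13 (-0.14) turned in control, Klf7 (-0.045) in LTβRΔN and Klf13 (-0.063) averaged. With index Klf6 (-0.026), Klf7 (-0.088) and Klf10 (0.021) turned in control, Klf7 (-0.59) and Klf10 (0.60) in LTβRΔN, and Klf7 (-0.34) and Klf10 (0.31) averaged. Within index S521 Klf6 (-0.032), Klf7 (-0.094) and Klf10 (0.017) turned. With the block Klf7 (-0.15) turned in LTβRΔN neutrophils. Without the small libraries Klf4 turned in LTβRΔN (-0.95) and in the genotype difference of stimulated neutrophils (-0.51).

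With each library left out in turn, genes passing ranged from 219 to 334 in control, 266 to 334 in LTβRΔN, 464 to 614 averaged, 2 to 6 and 2 to 2 for genotype and 0 to 2 for the interaction, and members from 0 to 1, 0 to 1 and 2 to 3. Direction turned for Klf7 (-0.0097 to 0.37) and Klf4 (-0.019 to 1.87) in LTβRΔN, Klf4 averaged (-1.24 to 0.11), Klf10 (-0.30 to 0.12) and Klf7 (-0.072 to 0.40) for genotype in unstimulated and Klf7 (-0.24 to 0.14) in stimulated neutrophils, and Klf7 (-0.50 to 0.017) and Klf2 (-0.21 to 0.033) in the interaction.

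The number that 7 unstimulated and 7 stimulated columns share has no stated meaning. Each shared number joins columns of the same genotype. Deviations of log2 CPM from the group means, over all tested genes, had correlations of 0.0214 to 0.0694 between libraries with the same number. These are not correlations of whole libraries. By these deviations 8 of 14 libraries correlated best with the library of their own number, among all other libraries. No p was computed for these values, so whether the number marks a pairing was not settled. The main tests are unpaired and would not use such a pairing. With the block Klf2 passed in control (0.58, edgeR adjusted p = 0.00235) and LTβRΔN neutrophils (0.40, edgeR adjusted p = 0.0154).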
